A study of Mus musculus with 4 samples.

Results

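The genes described here drive and police cell division. They were taken from a list of 44 mitosis and chromosome segregation genes, and a member counted as measured when a probe set of the array mapped to it and to no other gene in the platform annotation. This gave 41 measured members of the 22180 genes that the array named in this way. Ccnb1, Ccnf and Ncapg have no expression values here: the annotation table lists no probe set for Ccnb1, and the only probe sets for Ccnf and Ncapg are shared with a second gene. Each measured member was read by 1 probe set. RNA came from 4 primary tumours of 1 genotype, with 1 array per tumour: all carried mutant Alk and TH-MYCN, lacked Stat6 (Stat6-/-) and had the strain background C57BL\6 x 129Sv/J. The labels give sternocleidomastoid muscle as the tissue. The transgene is driven by the tyrosine hydroxylase promoter, so MYCN is made in sympathoadrenal cells, from which neuroblastoma arises. The labels do not state age, the kind of Alk mutation or whether each tumour had an animal of its own. Since all 4 tumours form 1 group, no conditions could be contrasted. Tumours are numbered 1 to 4 as names, no p-value is given, and errors are the SD over the 4 tumours.

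When a cell divides, cyclin-dependent kinase 1 bound to A and B cyclins starts mitosis, condensin packs the chromosomes, and kinetochores built on the centromeres tie them to the spindle. The spindle checkpoint holds the cell until every kinetochore is attached. The anaphase-promoting complex (APC/C) with Cdc20 then marks securin and the B cyclins for destruction, separase cuts cohesin, and the cell divides. Most of these genes are transcribed in bursts late in the cycle, under FOXM1, B-MYB and the MuvB core, a protein complex that binds a promoter element called CHR (cell cycle genes homology region), often beside CCAAT boxes bound by NF-Y. In neuroblastoma, high levels of this programme are a known mark of fast growing disease.

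The promoters are shown because CHR and CCAAT letters are the features of sequence that these genes are known to share. RefSeq promoter windows of 300 bases (GRCm38.p6, 250 before and 50 after the start) were at hand for 36 of the 44 members, in 38 windows. No window was used for Aurkb, Ccna2, Cdc25c, Foxm1, Incenp, Smc4, Spc24 or Tpx2. The 36 include Ccnb1, Ccnf and Ncapg, which have a window but no expression values. The CHR letters TTTGAA, on either strand, stood in 25 of 36 members (69.4%), against 20.2% of 27025 genes with a window in the same table. CCAAT stood in 29 of 36 members (80.6%), against 41.1% of genes, and both motifs together in 23 of 36 (63.9%), against 7.97% of genes. Within 50 bases of the start, 23 of 36 members (63.9%) had CHR letters, against 5.94% of genes. The CHR variant TTTAAA stood in 7 of 36 members (19.4%), against 14.9% of genes. The E-box CACGTG, the letters bound by MYC and MYCN, stood in 3 of 36 (8.33%), against 8.09% of genes, and the E2F letters GGCGGGAA in 0 of 36, against 2.52%. Every motif was searched on both strands, and matches of different motifs overlapped once in the member windows. Such matches describe letters and show no binding.

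The promoters printed below belong to the widest varying member with both motifs in each of 6 role groups. Each line holds 200 bases, 170 before and 30 after the RefSeq start, 5′ to 3′ on the strand of the gene, with CHR letters (TTTGAA, or TTCAAA on the other strand) and CCAAT letters (or ATTGG) in capitals.
Hmmr, chr11:40733408-40733607, minus strand: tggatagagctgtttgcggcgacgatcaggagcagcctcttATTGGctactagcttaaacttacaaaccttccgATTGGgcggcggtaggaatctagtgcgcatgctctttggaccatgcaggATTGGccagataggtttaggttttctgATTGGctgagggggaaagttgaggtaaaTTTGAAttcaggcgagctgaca
Plk1, chr7:122159265-122159464, plus strand: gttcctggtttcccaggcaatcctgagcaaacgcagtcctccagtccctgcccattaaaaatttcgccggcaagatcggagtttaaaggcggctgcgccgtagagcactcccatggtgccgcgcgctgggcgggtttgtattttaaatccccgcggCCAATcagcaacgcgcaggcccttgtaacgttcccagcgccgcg
Cdc20, chr4:118437314-118437513, minus strand: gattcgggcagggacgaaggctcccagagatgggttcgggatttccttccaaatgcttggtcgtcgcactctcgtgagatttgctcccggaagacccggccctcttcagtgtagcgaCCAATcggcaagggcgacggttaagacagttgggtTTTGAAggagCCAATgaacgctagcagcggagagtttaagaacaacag
Ttk, chr9:83834519-83834718, plus strand: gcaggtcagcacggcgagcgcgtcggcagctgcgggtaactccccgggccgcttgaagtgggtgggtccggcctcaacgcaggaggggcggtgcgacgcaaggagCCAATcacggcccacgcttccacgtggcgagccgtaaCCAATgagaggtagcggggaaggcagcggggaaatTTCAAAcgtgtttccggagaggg
Spc25, chr2:69206184-69206383, minus strand: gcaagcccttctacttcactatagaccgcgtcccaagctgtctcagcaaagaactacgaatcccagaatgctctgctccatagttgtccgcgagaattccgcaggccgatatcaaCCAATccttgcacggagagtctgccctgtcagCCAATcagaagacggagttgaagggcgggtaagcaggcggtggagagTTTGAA
Top2a, chr11:99024160-99024359, minus strand: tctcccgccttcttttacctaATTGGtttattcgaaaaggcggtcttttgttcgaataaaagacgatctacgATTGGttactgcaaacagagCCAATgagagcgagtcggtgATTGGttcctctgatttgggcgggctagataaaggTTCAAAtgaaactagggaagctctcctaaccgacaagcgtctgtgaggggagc
In Hmmr, Cdc20, Ttk, Spc25 and Top2a a CHR lay downstream of a CCAAT box and close to the start. In Plk1 the CHR was centred 33 bases past the start, just outside the printed stretch. That stretch does hold the CHR variant TTTAAA, centred at -86 and -26 bases from the start and not put in capitals. Mad2l1, Ncaph, Nuf2, Nusap1 and Pttg1 held neither set of letters in their windows.

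**Figure D1:**
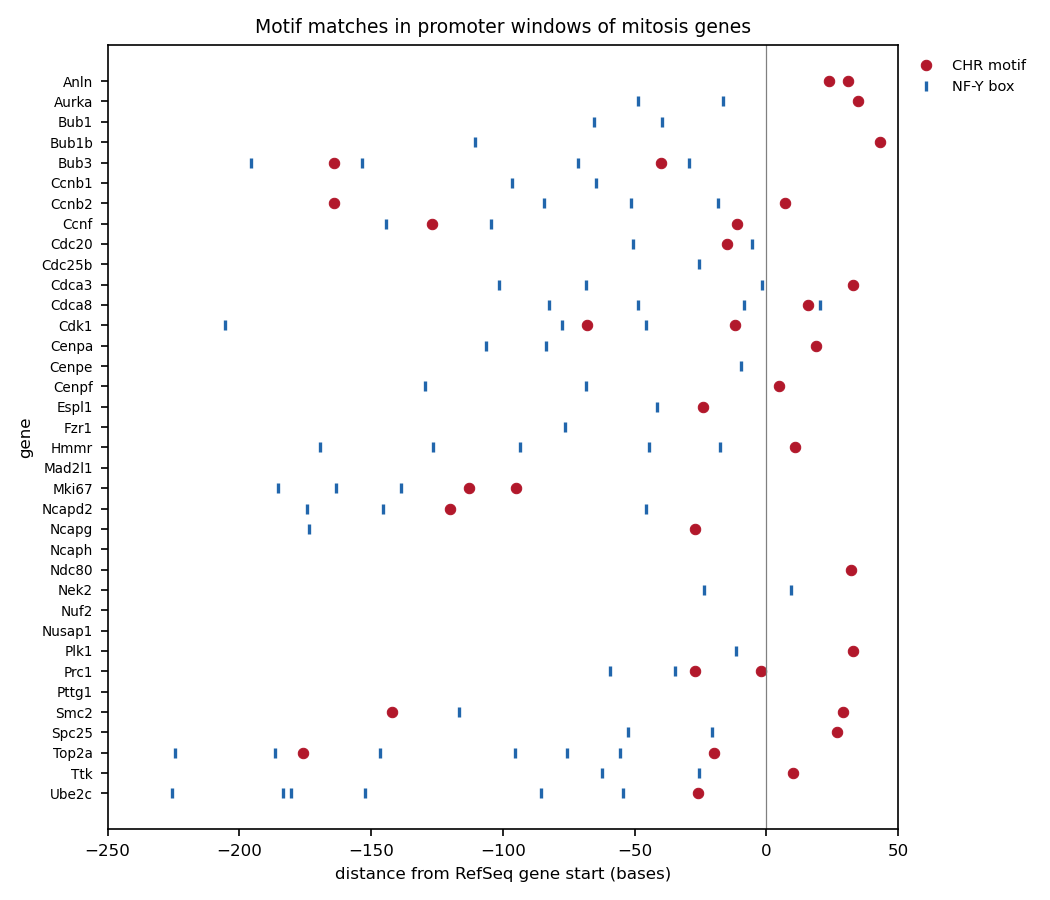
Distance in bases from the RefSeq gene start (x axis) of each CHR motif (red circles) and NF-Y box (CCAAT letters, blue ticks) in the promoter windows of 36 mitosis genes (y axis, 1 row per gene). CHR matches gather near the start, with a median centre of -11.5 bases over 34 matches, and CCAAT matches lie further upstream, with a median of -73.5 bases over 70 matches. Bub3 and Prc1 have overlapping windows with different starts, so their sites count more than once.

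All 41 measured members were detected, against 40.5% of the named genes. Detected means a mean over the 4 tumours above a log2 value of 6.17, the 95th percentile of the means of 1394 odorant and pheromone receptor genes, taken as unexpressed. Member means ran from 6.90 (Spc24) to 10.57 (Ccna2), and 39 of the 41 also passed the 99th percentile, 7.14. The 2 that did not were Spc24 and Hmmr. The spread between tumours was moderate: the highest and the lowest tumour differed by a median of 0.50 log2 units (1.42-fold) over members, against 0.41 (1.33-fold) over 8989 detected genes. These ranges include offsets between arrays. With arrays centred on detected genes the median over members was 0.36, and that over all detected genes was not computed. A range of at least 1 log2 unit (2-fold) was reached by 1 of 41 members, against 4.26% of detected genes, and a range of at least 1.5-fold by 16 of 41 (39.0%), against 24.2%.

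Most members shared an order. By deposited value, 26 of 41 were highest in tumour 2, against 26.9% of detected genes, 14 in tumour 1, against 46.6%, and 1 in tumour 4, against 15.5%. The lowest value lay in tumour 4 for 28 of 41, against 38.6% of detected genes, and in tumour 3 for the other 13, against 36.1%. In 38 of 41 members tumours 1 and 2 both lay above tumours 3 and 4, against 50.7% of detected genes. Detected genes in general leaned the same way, with median deviations from their own mean of 0.12, 0.04, -0.09 and -0.08 in tumours 1 to 4. A relative shift removes this: it is the deviation of a gene from its own 4-tumour mean, minus the median deviation of detected genes of like level. On that scale tumours 1 and 2 both lay above tumours 3 and 4 in 22 of 41 members, against 25.1% of detected genes. The highest shift lay in tumour 2 for 29 of 41, against 27.9%, and the lowest in tumour 4 for 25 of 41, against 28.7%. The median relative shift was 0.03 in tumour 1, 0.16 in tumour 2, -0.08 in tumour 3 and -0.12 in tumour 4, with SDs over members of 0.10, 0.15, 0.12 and 0.15. It is 0 for detected genes by construction. Members lay above 0 in tumour 2 in 36 of 41 cases, against 49.9% of detected genes, and below 0 in tumour 4 in 33 of 41, again against 49.9%.

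**Figure D2:**
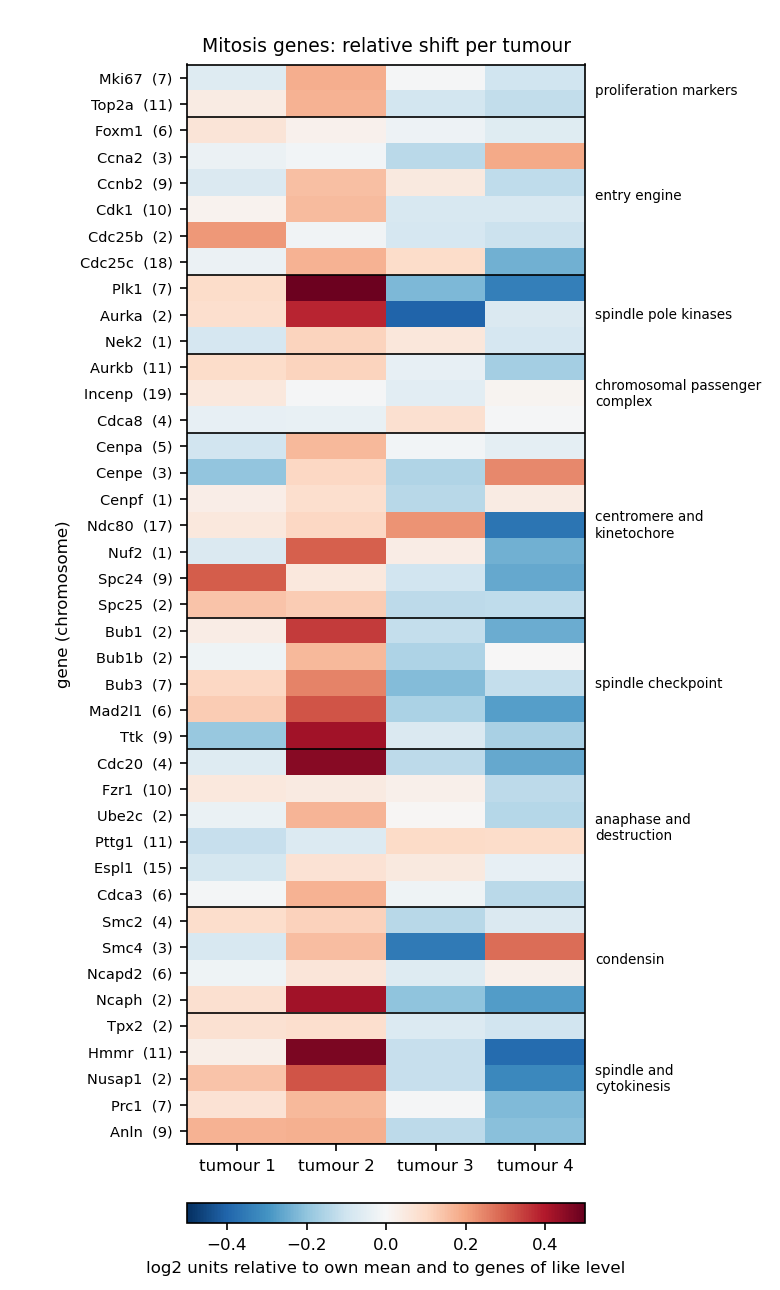
Relative shift (colour, log2 units, limits of the scale at -0.5 and 0.5) of the 41 measured members (rows, with the chromosome in brackets, grouped by role) in the 4 tumours (columns). Red dominates in tumour 2 and blue in tumour 4, where 8 of the 41 members lie above 0, the chromosome 3 genes Ccna2, Cenpe and Smc4 furthest.

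Between pairs of tumours the differences were small and mostly in 1 direction. Tumour 2 lay above tumour 4 in 40 of 41 members, against 64.9% of detected genes, with a median difference (tumour 2 minus tumour 4) of 0.44 log2 units over members and 0.12 over detected genes. The difference reached 1.5-fold in 12 of 41, against 7.94% of detected genes, and 2-fold in 1, Hmmr, against 0.957%. Tumour 2 lay above tumour 3 in 41 of 41, against 67.8%, with medians of 0.37 and 0.13, and by at least 1.5-fold in 10, against 6.16%. Tumour 1 also lay above tumour 3 in 41 of 41, against 79.8%, with medians of 0.32 and 0.21. Tumours 3 and 4 were close, with tumour 3 above tumour 4 in 28 of 41 members, against 49.6%, and a median difference of 0.08, against 0.00 (-0.0013). Tumour 1 lay above tumour 4 in 38 of 41, against 77.1%, and above tumour 2 in 14 of 41, against 62.8%.

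The proliferation markers are Mki67, which codes for the Ki-67 protein that coats mitotic chromosomes and is the standard stain for dividing cells, and Top2a, the topoisomerase that untangles sister DNA. Mki67 measured 10.41, 10.65, 10.28 and 10.20 in tumours 1 to 4 (10.38 ± 0.20, SD, n = 4). Top2a measured 9.70, 9.79, 9.33 and 9.30 (9.53 ± 0.25, SD, n = 4). Both were highest in tumour 2, against 26.9% of detected genes, and lowest in tumour 4, against 38.6%. In bulk tissue, fewer dividing cells and less RNA per dividing cell cannot be told apart.

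The 6 measured genes of mitotic entry had a median range of 0.45 log2 units, against 0.41 over detected genes. Cdk1, the kinase that starts mitosis, had its highest value in tumour 2 (10.64) and its lowest in tumour 3 (10.21), and Ccnb2, a B cyclin, ran from 9.18 in tumour 4 to 9.66 in tumour 2. Cdc25c, a phosphatase that switches Cdk1 on, was the widest of the 6 measured genes and gave 8.05, 8.16, 7.89 and 7.57 in tumours 1 to 4 (7.92 ± 0.26, SD, n = 4), with tumour 4 lowest. Its range was 0.60, and 0.27 without tumour 4. Its relative Cdc25b was highest in tumour 1 (7.75) and lowest in tumour 4 (7.18). Foxm1, the transcription factor of the programme, also peaked in tumour 1 (8.03) and was lowest in tumour 4 (7.63). Ccna2, cyclin A2, was the narrowest and gave 10.64, 10.64, 10.33 and 10.68 (10.57 ± 0.16, SD, n = 4). It was the only member with its highest value in tumour 4, and tumour 3 stood below the rest.

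Of the spindle pole kinases, Plk1 and Aurka were among the members that varied most. Plk1, polo-like kinase 1, which matures centrosomes and triggers many mitotic steps, gave 10.02, 10.41, 9.50 and 9.41 in tumours 1 to 4 (9.83 ± 0.47, SD, n = 4), a range of 0.999 that fell just short of 2-fold. Aurka, the Aurora kinase of the spindle poles, ran from 7.76 in tumour 3 to 8.72 in tumour 2. Its activator Tpx2, which is counted with the spindle genes, ran only from 8.43 in tumour 4 to 8.84 in tumour 1. Nek2, a kinase that separates centrosomes, was the narrowest, with 7.61, 7.73, 7.52 and 7.39 (7.56 ± 0.14, SD, n = 4). All 3 kinases were highest in tumour 2, against 26.9% of detected genes.

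The chromosomal passenger complex, which corrects faulty attachments and later guides cytokinesis, was read through the 3 genes listed for it only. It had small median shifts over these 3, but they differed. Its kinase Aurkb gave 8.89, 8.86, 8.53 and 8.39 in tumours 1 to 4 (8.67 ± 0.25, SD, n = 4), and its subunit Cdca8 (borealin) 7.87, 7.79, 7.73 and 7.65 (7.76 ± 0.10, SD, n = 4). Incenp, the scaffold, ran from 7.19 in tumour 3 to 7.51 in tumour 1. By deposited value all 3 were highest in tumour 1, against 46.6% of detected genes. By relative shift Incenp still was (0.05), while Aurkb was highest in tumour 2 and Cdca8 in tumour 3 (0.08). By relative shift Aurkb lay at 0.11 in tumour 2 and -0.17 in tumour 4, while Cdca8 lay at -0.04 and -0.0040 and Incenp at -0.0068 and 0.01.

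Centromere and kinetochore genes did not all share 1 order. The Ndc80 complex, the part of the kinetochore that grips microtubules, has 4 subunits in the list. Spc24 was the widest of the 7 genes and gave 7.32, 6.96, 6.73 and 6.58 in tumours 1 to 4 (6.90 ± 0.32, SD, n = 4), so tumour 1 was highest. Its range was 0.74, and 0.38 without tumour 1, below that of Nuf2 (0.70), so its rank rests on 1 array. Ndc80 gave 8.59, 8.57, 8.50 and 7.93 (8.40 ± 0.32, SD, n = 4), with tumour 4 well below the other 3. Nuf2 peaked in tumour 2 (8.41) and was lowest in tumour 4 (7.71), and Spc25 peaked in tumour 1 (8.61) with its lowest value in tumour 3 (8.07). By deposited value Nuf2 was highest in tumour 2, against 26.9% of detected genes, and the other 3 subunits in tumour 1, against 46.6%. By relative shift Ndc80 was highest in tumour 3 (0.22), Nuf2 in tumour 2 (0.30), and Spc24 (0.30) and Spc25 (0.14) in tumour 1. On that scale all 7 genes lay above 0 in tumour 2, against 49.9% of detected genes. Cenpa, the histone that marks centromeres, was the narrowest, with 9.11, 9.32, 8.95 and 8.93 (9.08 ± 0.18, SD, n = 4). Cenpe, a kinesin that moves chromosomes to the spindle centre, was high in tumours 2 (8.05) and 4 (7.999) and low in tumours 1 (7.83) and 3 (7.61). Cenpf, a large kinetochore protein, ran from 7.89 in tumour 3 to 8.29 in tumour 1.

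The spindle checkpoint genes were all highest in tumour 2, 5 of 5, against 26.9% of detected genes, and their median relative shift there was 0.31 ± 0.10 (SD over 5 genes). Mad2l1, which with Bub1b and Bub3 forms the inhibitor of Cdc20, was the widest and gave 9.28, 9.42, 8.75 and 8.65 in tumours 1 to 4 (9.03 ± 0.38, SD, n = 4). Tumours 1 and 2 lay well above tumours 3 and 4. Bub1b was the narrowest, with 8.33, 8.47, 7.97 and 8.10 (8.22 ± 0.22, SD, n = 4). Ttk, the kinase that starts the checkpoint, stood out in tumour 2 (8.37) from 7.60 to 7.85 in the others. Bub1, the kinase that marks centromeres for shugoshin, ran from 7.70 in tumour 4 to 8.46 in tumour 2, and Bub3, which carries both Bub kinases to kinetochores, from 10.13 in tumour 3 to 10.79 in tumour 2.

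Among the genes of anaphase and protein destruction, Cdc20 and Pttg1 were at opposite ends. Cdc20, the mitotic activator of the APC/C, gave 9.18, 9.65, 8.87 and 8.75 in tumours 1 to 4 (9.11 ± 0.40, SD, n = 4) and was highest in tumour 2. Pttg1, securin, the inhibitor of separase that Cdc20 marks for destruction, gave 7.73, 7.69, 7.67 and 7.67 (7.69 ± 0.03, SD, n = 4), the narrowest range of the 41 members. Its relative shifts were -0.11 and -0.07 in tumours 1 and 2 and 0.09 in tumours 3 and 4, opposite in sign to the medians of the members. Since its values were nearly flat, these shifts come mainly from the subtracted medians of genes of like level. The sign of the members' median in tumour 1 was itself not settled. Espl1, separase itself, was also narrow, from 7.43 in tumour 4 to 7.69 in tumour 2. Ube2c, the ubiquitin-conjugating enzyme of the APC/C, ran from 9.28 in tumour 4 to 9.79 in tumour 2, and Cdca3, a protein that promotes entry into mitosis, from 7.12 to 7.58 in the same tumours. Fzr1, the activator that takes over from Cdc20 at mitotic exit and in G1, ran from 8.48 in tumour 4 to 8.90 in tumour 1.

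Condensin was measured through 4 of its 5 listed subunits. Ncaph, its kleisin, was the widest and gave 8.20, 8.45, 7.69 and 7.59 in tumours 1 to 4 (7.98 ± 0.41, SD, n = 4), high in tumours 1 and 2. Ncapd2 was the narrowest, with 9.44, 9.49, 9.17 and 9.26 (9.34 ± 0.15, SD, n = 4). The ATPase subunits split: Smc2 had close values in tumours 3 (8.49) and 4 (8.55), below tumours 1 (8.95) and 2 (8.93), while Smc4 gave 9.60, 9.79 and 9.72 in tumours 1, 2 and 4 and 9.09 in tumour 3. Smc4 was the 1 member of 41 that lay at least 1.5-fold lower in tumour 3 than in tumour 4, against 2.47% of detected genes.

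The spindle and cytokinesis genes were lowest in tumour 4 in 5 of 5 cases, against 38.6% of detected genes, with a median relative shift there of -0.22 ± 0.11 (SD over 5 genes). Hmmr, a spindle assembly factor, was the widest of all members and gave 7.29, 7.64, 6.91 and 6.63 in tumours 1 to 4 (7.12 ± 0.44, SD, n = 4). Tpx2, the narrowest here, gave 8.84, 8.80, 8.47 and 8.43 (8.64 ± 0.22, SD, n = 4). Nusap1, which bundles spindle microtubules, ran from 7.59 in tumour 4 to 8.38 in tumour 2, Prc1, which bundles the central spindle, from 8.50 to 9.07 in the same tumours, and Anln, a scaffold of the cleavage furrow, from 8.02 in tumour 4 to 8.65 in tumour 1.

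**Figure D3:**
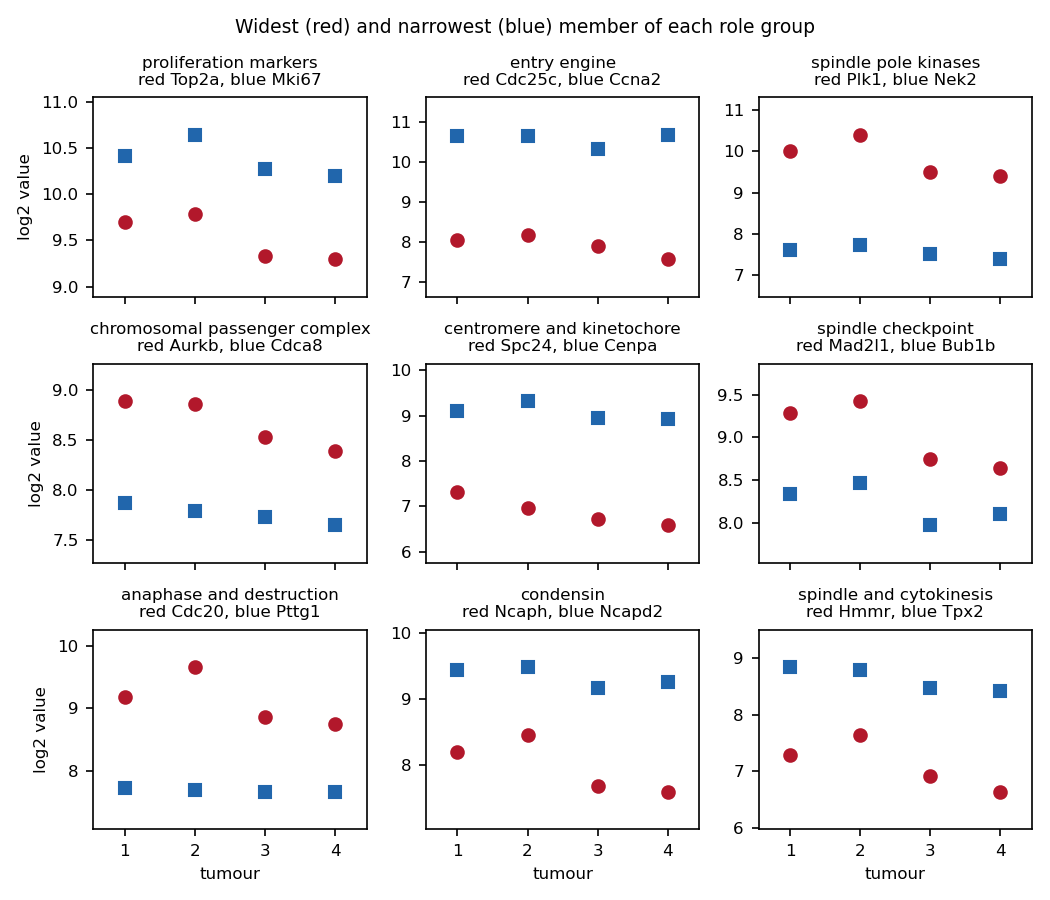
Log2 value (y axis, own scale in each panel) in tumours 1 to 4 (x axis) of the member with the widest (red circles) and the narrowest (blue squares) range in each of 9 role groups, 1 point per tumour. Levels of different genes depend on their probes and are not to be set against each other. Plk1, Ncaph, Mad2l1 and Hmmr are high in tumours 1 and 2 and low in tumours 3 and 4. Cdc20 stands out in tumour 2, while Pttg1 is nearly flat.

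By deposited value, the 3 members in which tumours 1 and 2 did not both lie above tumours 3 and 4 were Ccna2, Cenpe and Smc4, the 3 measured members on chromosome 3. They had relative shifts of 0.19, 0.24 and 0.28 in tumour 4. Of the other 38 members, 33 lay below 0 there, against 49.9% of detected genes. The chromosome as a whole was higher in that tumour: its 435 detected genes had a median relative shift of 0.27, and 401 of them (92.2%) lay above 0, while the medians of the other 19 chromosomes lay between -0.04 and 0.02. Measured against the detected genes of chromosome 3 alone, Ccna2 was at -0.08, Cenpe at -0.03 and Smc4 at 0.01 in tumour 4. The 3 detected genes of the other mitosis and replication lists on chromosome 3, named after their values were seen, also lay above 0 there, with Pmf1, a kinetochore subunit, at 0.42, Ect2, an activator of cytokinesis, at 0.15 and Plk4, the kinase of centriole duplication, at 0.12. DNA copy number was not measured in the data used here. Without the chromosome 3 genes the median relative shift of the members was -0.13 in tumour 4. By deposited value, 28 of these 38 members were lowest in tumour 4, against 38.6% of detected genes. The remaining 5 members at or above 0 there were Pttg1 (0.09), Cenpf (0.04), Ncapd2 (0.03), Incenp (0.01) and Bub1b (0.0030).

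**Figure D4:**
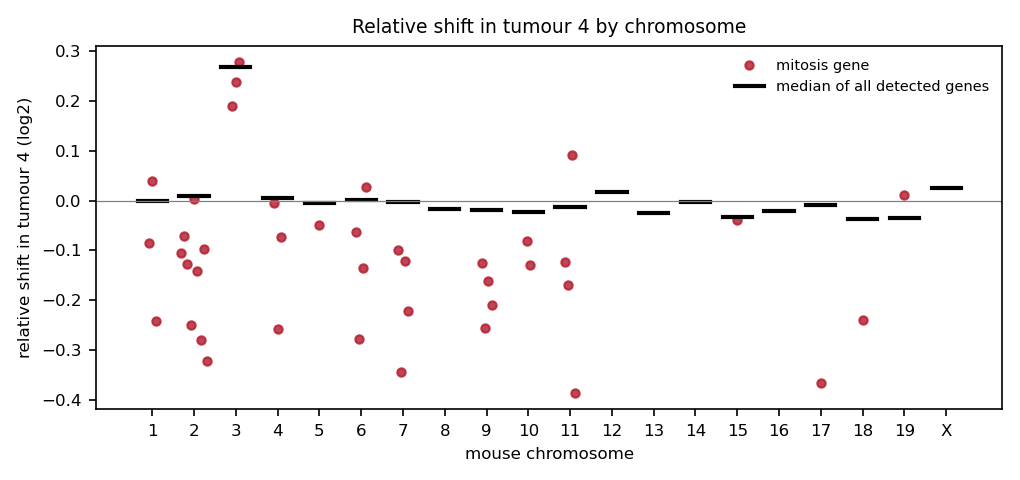
Relative shift in tumour 4 (y axis, log2 units) by mouse chromosome (x axis), with 1 red point per measured mitosis gene and a black bar at the median of all detected genes of the chromosome. The bar of chromosome 3 stands at 0.27, the others lie between -0.04 and 0.02, and the 3 mitosis genes of chromosome 3 are close to its bar.

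Other genes of the pathway, listed with the earlier results known, lay in the same directions. Of 98 further mitosis genes 95 were measured and 88 detected. In tumour 2, 73 of the 88 lay above 0, against 49.9% of detected genes, with a median relative shift of 0.13 ± 0.15 (SD over genes), and in tumour 4, 64 of the 88 lay below 0, against 49.9%, at -0.11 ± 0.17. Further spindle and cytokinesis genes, among them the mitotic kinesins, had a median of 0.25 in tumour 2 and -0.19 in tumour 4 over 23 detected genes. Their widest member was Ckap2, a microtubule-associated protein, from 7.17 in tumour 4 to 8.13 in tumour 2. Further kinetochore genes had medians of 0.13 and -0.11 in tumours 2 and 4 over 20 genes, with Ska3, of the complex that follows shrinking microtubules, from 6.395 in tumour 4 to 7.75 in tumour 2, and Zwint nearly constant, from 9.35 to 9.41. The list of APC/C subunits, which also holds partners of the complex, gave 0.10 and -0.10 over 15 genes. Cohesin, which holds sister chromatids together, was listed with its regulators and gave 0.07 and -0.07 over 12. The 12 genes listed for the MuvB and DREAM complexes, of which the MuvB core binds the CHR, gave 0.08 and -0.09. Lin9, a MuvB subunit, ran from 7.23 in tumours 3 and 4 to 8.09 in tumour 2. DNA replication genes, which act in S phase, gave 0.19 ± 0.14 in tumour 2 and -0.15 ± 0.13 in tumour 4 over 28 detected genes, with 26 above 0 in the first and 25 below 0 in the second, each against 49.9% of detected genes. Cdt1, a licensing factor, ran from 7.53 in tumour 4 to 8.46 in tumour 2. Of 12 genes of cell cycle exit, such as Cdkn inhibitors, 9 were detected, with medians of 0.05 ± 0.24 in tumour 2 and -0.13 ± 0.23 in tumour 4 (SD over genes). The sign in tumour 2 was not settled: 5 genes lay above 0 and 4 below, and the median was -0.0327 without a floor on level. Their widest member, Cdkn3, a phosphatase that acts on Cdk1 and Cdk2 and is itself high in dividing cells, ran from 7.25 in tumour 4 to 8.19 in tumour 2.

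**Figure D5:**
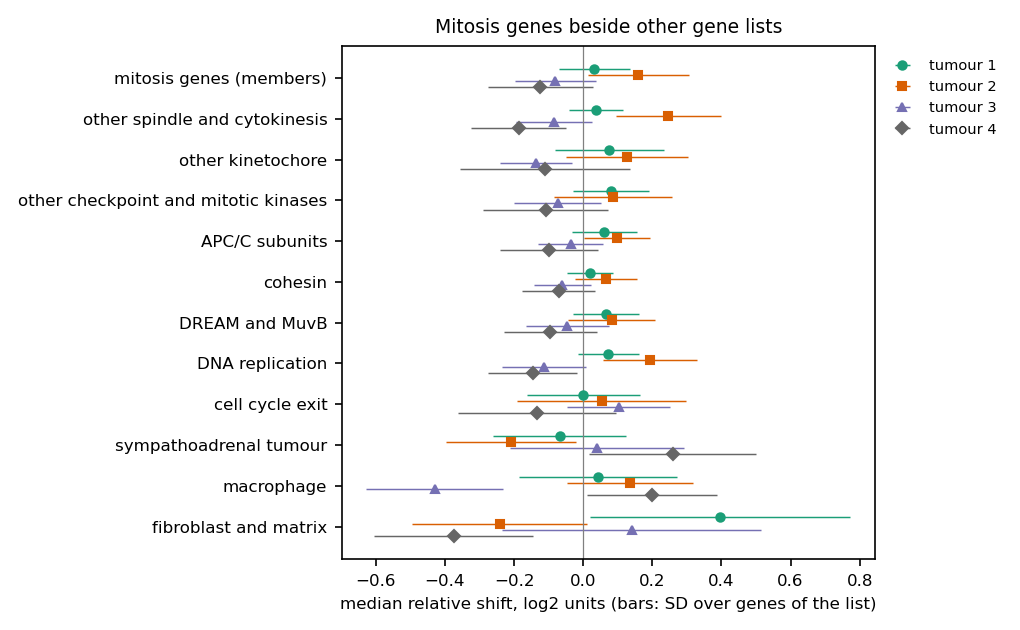
Median relative shift (x axis, log2 units, bars show the SD over the detected genes of a list) of the mitosis genes and of 11 other lists (rows) in tumours 1 to 4 (green circles, orange squares, purple triangles, grey diamonds). The division lists lie right of 0 in tumour 2 and left of 0 in tumour 4. The cell cycle exit list lies on the same sides (0.05 and -0.13), though its sign in tumour 2 was not settled. The sympathoadrenal list lies the other way, and macrophage genes are low in tumour 3 alone.

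The tumours also differed in other markers, whose part in the shared order was not tested. All 16 measured sympathoadrenal markers were detected, and their median relative shift was -0.21 ± 0.19 in tumour 2 and 0.26 ± 0.24 in tumour 4 (SD over genes), opposite to the mitosis genes, with mean log2 levels of 9.68, 9.52, 9.60 and 9.80 in tumours 1 to 4. Macrophage markers had 10 of 18 detected, with a relative shift of -0.43 in tumour 3 and 0.20 in tumour 4, and mean levels of 7.81, 7.81, 7.196 and 7.80. Fibroblast markers had 11 of 17 measured genes detected, with mean levels of 7.67, 6.92, 7.26 and 6.72, so they were high in tumour 1 and low in tumours 2 and 4. T, NK and B cell markers were detected in 0 of 12 cases and skeletal muscle markers, the tissue in the labels, in 0 of 20 (means of 3.63 to 5.86), against 40.5% of all named genes. Schwann cell markers had 3 of 9 and endothelial markers 2 of 12. Tumour 4 was also the 1 tumour with Xist, at 10.13 against 3.89 to 3.95 in the others, and without the Y-linked Eif2s3y, at 3.90 against 7.47 to 7.89. It therefore reads as female and the others as male, and its other differences cannot be told apart from sex. Array medians ran from 5.15 to 5.29.

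Shifts were also set beside the promoter letters. The 21 detected members with both CHR and CCAAT letters had median relative shifts of 0.16 in tumour 2 and -0.12 in tumour 4, and the 12 detected members whose windows lacked 1 or both had 0.14 and -0.23. Their median ranges were 0.49 and 0.65 log2 units. These are medians of small sets with no test.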

How the data were processed

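Total RNA was extracted with Trizol, labelled with biotin and hybridised to 1-colour Affymetrix arrays, 1 per tumour, per the labels' protocols. The deposited log2 values, 1 per probe set and tumour for 41345 probe sets, were made by the authors with RMA and Partek, per the submitters' processing notes. Neither the versions nor the settings are stated. The log base is not stated, and the values, from 2.47 to 13.6, are read as log2. RMA scales the arrays to each other at the probe level, yet medians over detected genes still differed between tumours.

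Probe sets with 1 gene in the platform annotation (23521 of 25335 listed) were named through Entrez identifiers and the RefSeq table of GRCm38.p6, which matched 23328. A gene took its probe set with the highest mean. The floor was the 95th percentile of receptor gene means. Relative shifts subtract the median deviation of detected genes in the same of 20 bins of mean level. The calculation of relative shifts was run on simulated arrays with independent noise and known shifts, which checks the arithmetic and not the results given here. All steps ran in Python 3.11.15 with pandas 2.3.3 and numpy 2.4.6, and figures used matplotlib 3.10.9. RefSeq promoter sequences were credited to GRCm38.p6. Members, lists and tests were chosen with earlier results of these data known. Named with every tumour's value were Mki67, the widest and narrowest member per role group, and members whose 4 values had 1 far from the rest. Other members are given by extremes, except Cenpe, Smc2 and Smc4, whose 4 values are given and were chosen after they were seen. Other lists name at most their 2 widest and 2 narrowest genes, except the chromosome 3 genes Pmf1 and Plk4, also chosen after their values were seen. Nothing in the labels says that each tumour had its own animal. By Xist and Eif2s3y, tumour 4 reads as female and the others as male, so it would not share an animal with them. With 1 array per tumour the SD also holds technical variation, and the number of arrays limits the precision.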

Additional observations from a re-analysis of the deposited data

Results flagged for a closer look

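In 2 of 41 members 1 tumour lay far from the other 3, by the ratio of its gap to the whole range (Dixon's ratio, at its 95% critical value for 4 samples). Chance flags about 1 in 20 groups, which is 2.05 of 41. Ccna2 had a ratio of 0.877, with tumour 3 at 10.33 below 10.64 to 10.68 in the others. Ndc80 had a ratio of 0.862, with tumour 4 at 7.93 below 8.50 to 8.59 in the others. Smc4 came next among the members named here, with a ratio of 0.722 and tumour 3 lowest.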

How the results depend on the processing

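Of 751 values recomputed under 13 other settings and 3 more chosen after seeing the data, 717 kept their direction and stayed within the spread or within 1.5 times the count, 27 moved and 7 changed sign. Some of the 717 could not move. Each measured member had 1 probe set, so its range was the same under another floor or with the mean of probe sets. Relative shifts subtract medians over genes, so centring the arrays left those of the members the same. The 717 is therefore no measure of how firm the results are. The count of members with a range of at least 2-fold, 1 as reported, was 0 with the floor at the 99th percentile (which removes Hmmr), 0 after further quantile normalization, 0 with arrays centred on detected genes and 16 at 1.5-fold, and ran from 0 to 1 when each tumour was left out, with 0 without tumour 2 and 0 without tumour 4. Members highest in tumour 2 numbered 26 to 40 when another tumour was left out, with 40 of 41 without tumour 1, since the 14 members highest in that tumour then changed place. The median relative shift of the members stayed between 0.10 and 0.20 in tumour 2 and between -0.15 and -0.07 in tumour 4 under every alternative run, but in tumour 1 it ran from -0.0139 to 0.0752 as each other tumour was left out, and so had no settled sign. Cell cycle exit genes changed sign in tumour 2, at -0.0502 with the floor at the 99th percentile, -0.0393 with it lowered to the receptor median and -0.0327 without any, and ran from -0.0070 to 0.0859 when a tumour was left out; the cause was not tested. Condensin II genes, 3 in number, ran from -0.0647 to 0.0251 in tumour 4 as each other tumour was left out, the highest without tumour 1. With arrays centred on detected genes the median range of members was 0.36 in place of 0.50. The ranges of Foxm1 (0.17), Incenp (0.11) and Cdca8 (0.07) then fell by more than their SD, and that of Pttg1 rose to 0.17. Some members' ranges were over 1.5 times smaller with 1 tumour left out. Without tumour 1 these were Spc24 (0.38), Cdc25b (0.24), Incenp (0.15), Cdca8 (0.15) and Pttg1 (0.02). Without tumour 2 they were Hmmr (0.65), Plk1 (0.61), Cdc20 (0.42), Nuf2 (0.41), Ccnb2 (0.29), Ttk (0.24), Nek2 (0.22), Mki67 (0.21) and Cenpa (0.18). Without tumour 3 they were Cenpf (0.24), Cenpe (0.22), Smc4 (0.20) and Ccna2 (0.04). Without tumour 4 they were Nuf2 (0.41), Prc1 (0.37), Ccnb2 (0.30), Cdc25c (0.27), Fzr1 (0.25), Nek2 (0.21), Cdca8 (0.15) and Ndc80 (0.09). With 4 arrays of 1 group, no difference between tumours has a replicate of its own.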
